A study of Zea mays with 6 samples.

Results

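Maize separates its sexes by flower position, and jasmonate is part of how the tassel becomes male. Jasmonate is a lipid hormone that lipoxygenases, allene oxide synthase, allene oxide cyclase and oxophytodienoate reductase make in succession from fatty acids. In the tassel it leads to the loss of the pistils that every young floret starts with, and mutants that lack it carry silks and seeds in the tassel, from which the tasselseed genes are named. With earlier results of these data known, 6 genes were chosen by name for these roles, out of 39305 gene identifiers in the deposited table. They are ts1 (tasselseed1, also lox8, GRMZM2G104843), ts2 (tasselseed2, GRMZM2G455809), opr7 (GRMZM2G148281), opr8 (GRMZM2G082087), sk1 (silkless1, GRMZM2G021786) and lox10 (GRMZM2G015419).

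Messenger RNA was measured in tassels of 2 to 4 mm from greenhouse-grown B73 maize, an inbred line. Wildtype was sampled in 3 libraries, each from 5 pooled tassels, beside 3 libraries of the Bif1;Bif4 double heterozygous mutant, each from 10 pooled tassels. Bif1 and Bif4 are dominant alleles of genes for Aux/IAA proteins, which hold back auxin responses, and their tassels form fewer branches and spikelets. The genotypes are whole-plant and not driven by a transgene, and the pools are the replicates. Libraries held 21047225 to 24636859 reads, and values are normalized counts, that is, reads divided by 1 size factor per library. Of 4 inflorescence meristem markers, kn1 was at 8630 to 9258 in wildtype and 6797 to 7882 in Bif1;Bif4 (limma adjusted p = 0.073), and fea2 was at 741 to 791 and 729 to 796. The other 2 fell in Bif1;Bif4, td1 from 486 to 777 down to 125 to 226 (adjusted p = 0.019) and bif2 from 74.3 to 144 down to 30.8 to 47.9 (adjusted p = 0.036). Of 4 anther and tapetum markers, 2 were at or under 3 in every library and only ocl4, which also acts in the epidermis, was abundant; it fell in Bif1;Bif4 (log2 fold change -0.53, limma adjusted p = 0.011). Without wildtype replicate 2, kn1 and fea2 again did not pass and the falls of td1, bif2 and ocl4 again did. Wildtype replicate 2 stands apart from the other wildtype libraries, so limma genotype results that rest on it are given with and without it. DESeq2 and edgeR, used further on, were run on all libraries only, so their calls are not given without it. Of 21924 genes that passed the filter on low values, 4.85% were at least 2-fold higher in that library than in the other 2 wildtype libraries and 1.32% at least 2-fold lower.

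All 6 genes passed that filter, but none passed limma's test of genotype, where 5.04% of all tested genes did (2.13% higher and 2.91% lower in Bif1;Bif4). The values nevertheless fell into distinct patterns. The sex determination genes ts2 and sk1 and the reductase gene opr7 were below every wildtype library in all 3 Bif1;Bif4 libraries. The lipoxygenase gene ts1 had a higher mean in Bif1;Bif4, and opr8 differed little. The expression of lox10 was set apart by 1 wildtype library. Non-overlapping groups were seen for 14.2% of all tested genes with the lower values in Bif1;Bif4 and for 12.6% with the higher values there. The part of the falls in the markers td1, bif2 and ocl4 in these values was not tested. In bulk tissue, fewer cells that express a gene and less of its RNA per cell cannot be told apart.

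**Figure D1:**
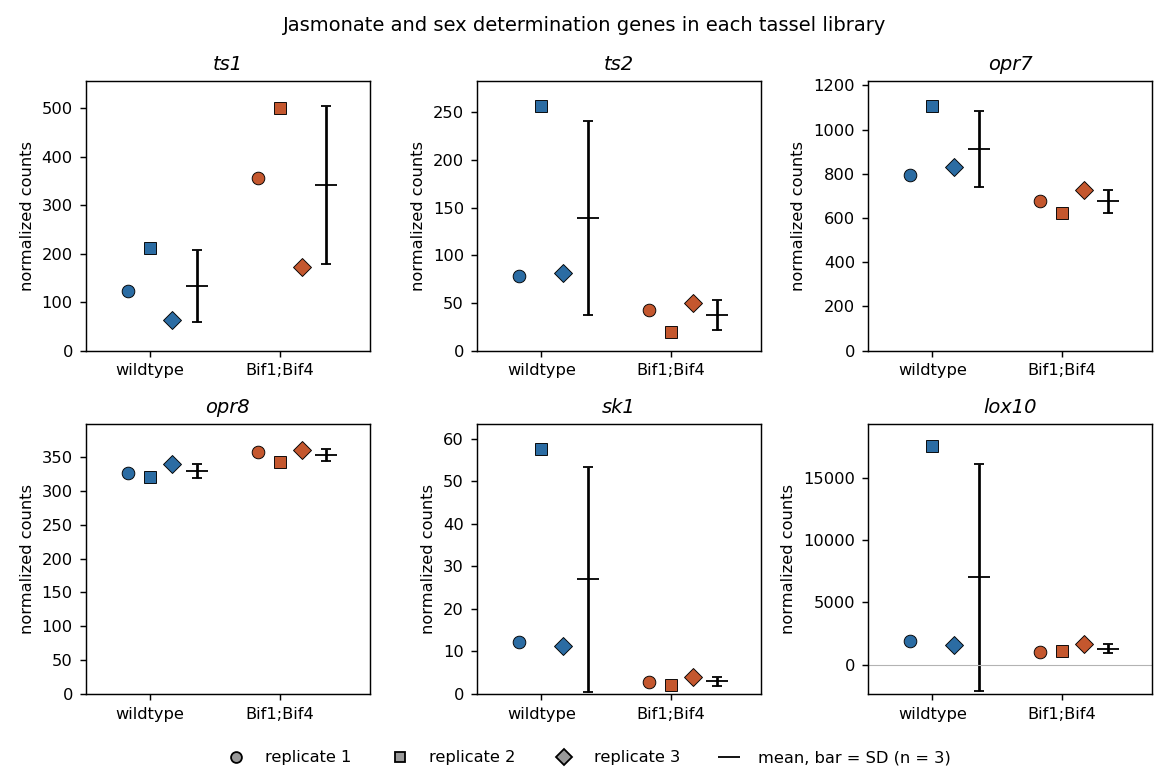
Normalized counts (y axis, linear, 1 scale per gene) of the 6 genes in each library, by genotype and replicate, with the mean and SD of 3 libraries beside the points. Wildtype replicate 2 is the highest wildtype library for ts1, ts2, opr7, sk1 and lox10, at 17573 for lox10 against 1874 and 1580.

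Both lipoxygenases among these genes are of the type that starts jasmonate and leaf volatile synthesis. The product of ts1 is plastid-located and supplies jasmonate in the tassel. In order of replicate, wildtype had 122, 212 and 64.0 normalized counts, and Bif1;Bif4 had 356, 499 and 173. The groups overlapped, because wildtype replicate 2 lay above Bif1;Bif4 replicate 3. The means were 133 ± 74.8 and 342 ± 163 (SD, n = 3 in each group). The log2 fold change was 1.39 (SE 0.56, 95% interval 0.01 to 2.78), with limma adjusted p = 0.23 over all genes tested. Without wildtype replicate 2 the mean ratio of Bif1;Bif4 to wildtype went from 2.58 to 3.68, and the limma adjusted p was 0.15. DESeq2 on recovered reads, which called 9.66% of all tested genes, placed ts1 higher (log2 fold change 1.36, adjusted p = 0.023). The edgeR test on the same reads, which called 4.61%, did not (adjusted p = 0.16). In the authors' deposited table ts1 had a log2 fold change of 0.49 with adjusted p = 0.2. For ts1, ts2, sk1 and lox10 the deposited fold changes are smaller in size than those of DESeq2 on recovered reads. For ts2 the values were -0.87 and -1.89. No source used here states how the deposited fold changes were estimated, so their size is not comparable with the other estimates.

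The other lipoxygenase gene, lox10, is known in maize leaves for making the precursors of green leaf volatiles. It was at 1874, 17573 and 1580 normalized counts in the wildtype libraries and at 1028, 1098 and 1678 in the Bif1;Bif4 libraries. Wildtype replicate 2 was 10.2 times the mean of the other wildtype libraries. The remaining 5 libraries lay within 1028 to 1874, and there the groups still overlapped, since Bif1;Bif4 replicate 3 was above wildtype replicate 3. This gene and its comparison in that library were chosen with earlier results of these data known, so the size of the gap is a description. On the log2 scale the gap was 3.35, which ranked 73 of the 21924 tested genes from the top. The genotype log2 fold change was -1.59 (SE 1.07, 95% interval -4.44 to 1.25, limma adjusted p = 0.49). Without that library it was -0.48 (SE 0.23, adjusted p = 0.33), with 1727 normalized counts as the mean of the other 2 wildtype libraries against 1268 ± 357 (SD, n = 3).

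The authors' deposited table gives lox10 a log2 fold change of -0.33 and no p-value. DESeq2 leaves the p-value out for a gene in which 1 sample has too much influence on the fit, measured by Cook's distance. When DESeq2 was run on the recovered reads, wildtype replicate 2 had a Cook's distance of 21.3 for lox10, above the limit of 18.0, and lox10 again received no p-value. The authors' deposited table holds, in all, 99 genes that had a fold change without a p-value, and sk1 was the other such gene among the 6. The Cook's distance of sk1 in that library was 6.54 in the run on recovered reads, under the limit. Values for ts2, ts1 and opr7 were 5.87, 0.185 and 0.438.

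Both opr7 and opr8 encode the type of oxophytodienoate reductase that acts in jasmonate synthesis. They are duplicate copies in the maize genome, and plants without both are known to have feminized tassels. The values of opr7 were 795, 1109 and 833 in wildtype and 679, 621 and 726 in Bif1;Bif4, so every Bif1;Bif4 library was below every wildtype library. Means were 913 ± 171 and 675 ± 52.7 (SD, n = 3 in each group). The log2 fold change was -0.42 (SE 0.13, 95% interval -0.73 to -0.12), with limma adjusted p = 0.12. It was -0.27 without wildtype replicate 2, the highest library (adjusted p = 0.15). The DESeq2 adjusted p was 0.053, and that of the authors' deposited table was 0.052.

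Its copy opr8 was the steadiest of the 6 genes, at 326, 320 and 340 in wildtype and 358, 343 and 360 in Bif1;Bif4. The Bif1;Bif4 libraries were all above the wildtype libraries, but by little. The log2 fold change was 0.10 (SE 0.10, limma adjusted p = 0.59), and its 95% interval of -0.11 to 0.32 bounds any difference at that range. Without wildtype replicate 2 it was 0.08 (adjusted p = 0.72). Wildtype replicate 2, the highest wildtype library for the other 5 genes, was the lowest library for opr8. Reads may fit both copies, and no source used here states how such reads were assigned. Both values are therefore uncertain, and the sum was also taken. The sum of opr7 and opr8 was 1121, 1430 and 1174 in wildtype and 1037, 963 and 1086 in Bif1;Bif4, lower in 3 of 3 Bif1;Bif4 libraries. The difference of -0.26 on the log2 scale had p = 0.1 in an exact two-sided permutation test, the smallest p that 3 against 3 allows. It was -0.16 without wildtype replicate 2 (exact permutation p = 0.2). Of this sum opr7 made up 70.9%, 77.6% and 71.0% in wildtype and 65.5%, 64.4% and 66.8% in Bif1;Bif4 (difference -7.58 percentage points, exact permutation p = 0.1, and -5.37 without wildtype replicate 2, exact permutation p = 0.1).

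The sex determination gene ts2 encodes a short-chain alcohol dehydrogenase that is needed for pistil loss. Wildtype libraries had 78.2, 257 and 81.5 normalized counts of it, and Bif1;Bif4 libraries 42.8, 19.9 and 49.9. No library of one genotype reached the range of the other, and wildtype replicate 2 was 3.22 times the mean of the other wildtype libraries. Means were 139 ± 102 and 37.5 ± 15.7 (SD, n = 3 in each group), a ratio of wildtype to Bif1;Bif4 of 3.70 that was 2.13 without wildtype replicate 2. The log2 fold change was -1.73 (SE 0.55, 95% interval -3.03 to -0.43), with limma adjusted p = 0.13. Without that library it was -1.17 (SE 0.39, adjusted p = 0.13). DESeq2 on recovered reads called ts2 lower (adjusted p = 0.0061), as did the authors' deposited table (log2 fold change -0.87, adjusted p = 0.0054), where 9.09% of genes with an adjusted p were called. The edgeR test did not (adjusted p = 0.10).

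Acting against pistil loss, sk1 encodes a glycosyltransferase that protects pistils in the ear and, when overexpressed in maize, feminizes the tassel. Of the 6 genes it had the fewest reads. Its values were 12.1, 57.7 and 11.3 in wildtype and 2.92, 1.99 and 3.91 in Bif1;Bif4, which are 11, 63 and 11 reads against 3, 2 and 4. The groups did not overlap, and wildtype replicate 2 was 4.92 times the mean of the other wildtype libraries. Only wildtype libraries reached the filter's 10 normalized counts, so the gene entered the test because it was higher there. The Bif1;Bif4 values lie near the limit that a count of 0 allows, 2.915 to 2.98 normalized counts in those libraries, and their level is not resolved. Over pooled reads, 85 against 9, wildtype was 9.72 times Bif1;Bif4 (95% exact interval 4.89 to 22.0, counting error only). Without wildtype replicate 2 it was 3.98 times (1.76 to 9.82), from 22 reads against 9. The log2 fold change was -2.46 (SE 0.65), with limma adjusted p = 0.071, and adjusted p = 0.093 without that library. DESeq2 called sk1 lower (adjusted p = 0.010), the edgeR test did not (adjusted p = 0.073), and the authors' deposited table gives a log2 fold change of -0.65 with no p-value.

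The genes that were most like each of these over the 6 libraries were found by the root mean square difference of centred log2 values. For lox10 they were lox1, MRP1 and CYP78A53, at 0.37, 0.39 and 0.40 log2 units. All 3 were highest in wildtype replicate 2, as in CYP78A53 with 2661 against 412 and 406 in the other wildtype libraries. For sk1 they were the AP2/ERF gene EREB93, ts2 itself and the TIFY gene pnFL-2, at 0.45, 0.46 and 0.46. In reverse, the profile of ts2 was closest to SRS7, MYB64 and Fes1B (0.31, 0.32 and 0.32). The nearest to ts1 were MAPK, the anthocyanin gene a2 and SAG, at 0.43, 0.47 and 0.47. For opr7 they were CID11, WRKY1 and bHLH125 (0.06, 0.07 and 0.08), and for opr8 DER1.1, smh4 and cc4 (0.03 each). Many flat genes lie close to a flat profile, so the last 3 say little. These are descriptions over 6 libraries that share the same wildtype replicate 2.

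That library was then followed along the jasmonate pathway. Of 33 genes with a jasmonate symbol, 4 of which are among the 6 above, 26 passed the filter. Matching was by symbol, so not every gene counted need act in jasmonate synthesis or response, and genes under other names are missed. Compared with the mean of the other wildtype libraries on the log2 scale, 12 of the 26 (46.2%, against 4.85% of all tested genes) were at least 2-fold higher in wildtype replicate 2. The median difference was 0.78, and the middle 50% of all tested genes lay between -0.16 and 0.20. Leaving out the 4 genes already described, 10 of 22 were 2-fold higher. Wildtype replicate 3 differed the other way, with 11 of the 26 at least 2-fold lower than the mean of the other wildtype libraries (2.86% of all tested genes were), a mean that includes replicate 2. Set directly against replicate 3, replicate 1 had 4 of 26 at least 2-fold higher (1.86% of all tested genes) and 1 lower, with a median difference of 0.21. With 1 library against 1 or 2, these values have no test.

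**Figure D2:**
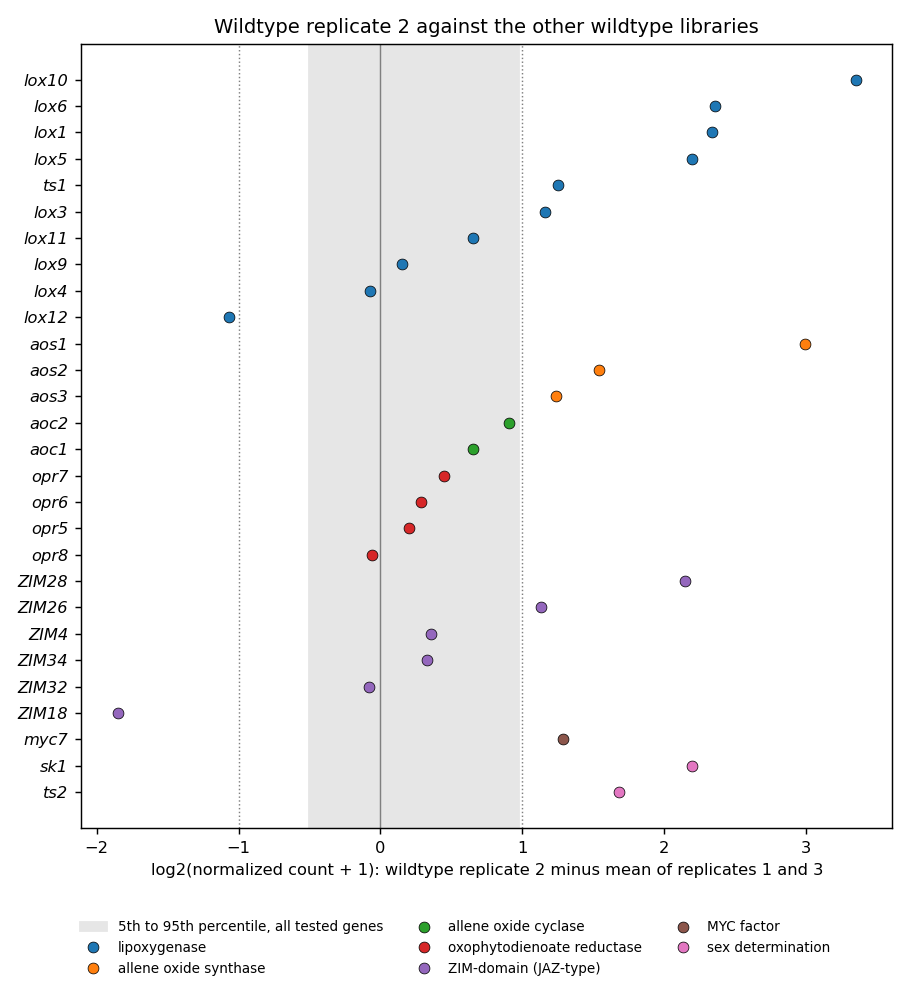
Difference on log2(normalized count + 1) between wildtype replicate 2 and the mean of wildtype replicates 1 and 3 (x axis) for the 26 tested jasmonate genes, ts2 and sk1, coloured by role. The grey band spans the 5th to 95th percentile of all tested genes (-0.50 to 0.98); lox10 lies farthest out at 3.35 and the oxophytodienoate reductase genes lie inside the band.

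The higher values in that library were uneven along the pathway. Among lipoxygenase genes 6 of 10 were 2-fold higher, which besides lox10 and ts1 were lox1, lox5, lox6 and lox3. Those with the most reads, lox1 and lox5, were at 15725 against 3229 and 2987, and at 11191 against 3055 and 1944. Symbols do not tell which lipoxygenase genes act in jasmonate synthesis, and this holds for lox1 and lox5. In the same library lox6 was at 1487 against 351 and 236, and lox3, of the lipoxygenase type that oxygenates fatty acids at another carbon than lox10 does, at 933 against 459 and 380. The genes lox4, lox9 and lox11 were within 2-fold, and lox12 was lower, at 11.9 against 28.6 and 23.7.

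All 3 tested genes of allene oxide synthase, the first step committed to jasmonate, were 2-fold higher there. The largest gap was in aos1, at 1082 against 203 and 90.8, followed by aos2 at 2082 against 739 and 689 and aos3 at 13.7 against 6.61 and 4.13. For allene oxide cyclase 0 of 2 and for the reductases 0 of 4 tested genes were 2-fold higher. The cyclase genes were nonetheless higher in that library than in the other wildtype libraries, aoc1 at 1156 against 734 and 743, and aoc2 at 1105 against 530 and 649. Later in the pathway, the bHLH gene myc7 (MYC2a), related to the factor that turns on jasmonate responses in Arabidopsis, was at 1427 against 623 and 549.

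ZIM symbols name the family that holds the JAZ repressors of jasmonate responses, though not every member of it is a JAZ repressor. Of 6 tested ZIM genes, ZIM28 and ZIM26 were 2-fold higher in wildtype replicate 2, at 1000 against 366 and 138, and at 62.2 against 37.4 and 20.6. The abundant ZIM32 and ZIM34 differed little, at 4835 against 5157 and 5038 and at 1422 against 1165 and 1093. The TIFY gene pnFL-2, named above as near to sk1, was not matched to the list and is not counted. It was at 2793 in wildtype replicate 2 against 892 and 636, and at 326, 362 and 284 in Bif1;Bif4. ZIM18 was at 0, with 1.10 and 5.16 in the others, values at or near the limit of a 0. Among jasmonate genes under the filter, aos4, opr1 and ZIM10 were nominally 2-fold higher and opr2 lower in that library, from at most 9.15 normalized counts.

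Wound and defence genes were listed beside the pathway because jasmonate also mediates wound responses. The proteinase inhibitor gene MPI was at 1869 in wildtype replicate 2 against 253 and 234, and the benzoxazinoid gene bx1 at 77.8 against 45.1 and 21.7. PR10 was lower, at 11.0 against 19.8 and 29.9, and igl1 differed little. Between genotypes PR10 fell, to 4.86, 2.98 and 2.94 in Bif1;Bif4 (log2 fold change -2.13, limma adjusted p = 0.044, and 0.018 without wildtype replicate 2). Only wildtype libraries reached the filter's 10 normalized counts of PR10, so it entered the test because it was higher there. Its adjusted p was 0.089 to 0.13 when any of the other 5 libraries was left out. MPI had 775, 664 and 1423 in Bif1;Bif4 and did not pass (log2 fold change 0.91, limma adjusted p = 0.66). It passed as higher in Bif1;Bif4 only without wildtype replicate 2, its highest library (1.88, limma adjusted p = 0.048), and in no other setting. The wound gene wip1 was at 5.49 in that library and at 0 in the other wildtype libraries, and 3 of the 8 genes listed were at or under 3 everywhere. The summed level of the 8 was 3404 in wildtype replicate 2 against 2022 and 2095, and 2293 to 3356 in Bif1;Bif4. Most of that sum was MPI and igl1, and igl1 was at 1441 in wildtype replicate 2 against 1702 and 1809. The higher sum there therefore reflects MPI and not the list as a whole. Leaf photosynthesis markers, 22 genes without those of doubtful identity, summed to 1607 to 1748 in wildtype and 1630 to 1896 in Bif1;Bif4. The largest part of that sum was mdh6, at 605 in wildtype replicate 2 against 847 and 610. Of the 11 tested, 3 were 2-fold higher in wildtype replicate 2 (27.3%, against 4.85% of all tested genes). They were psb29 (112 against 17.6 and 33.0), an rbcS gene (48.5 against 25.3 and 17.5) and Cab-m7 (21.1 against 11.0 and 4.13). Another rbcS gene, under the filter, was at 3.66 against 6.61 and 1.03. The part of wounding or of other tissue in the values of that pool was not tested.

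**Figure D3:**
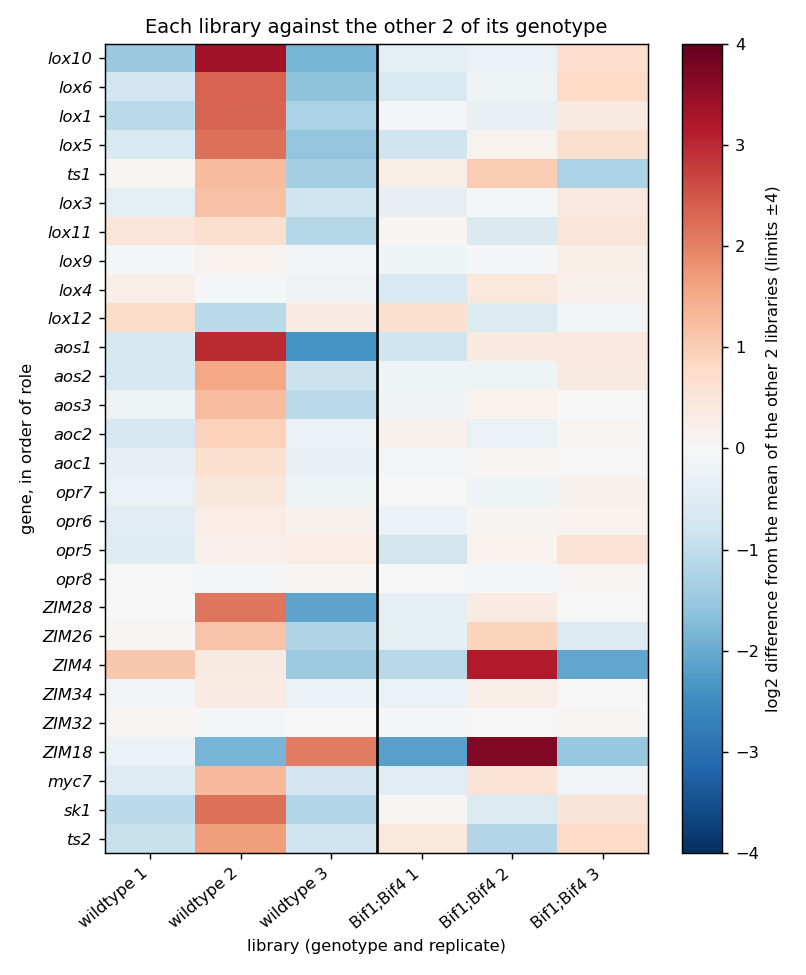
Log2 difference of each library (columns) from the mean of the other 2 libraries of its genotype, for the 26 tested jasmonate genes, sk1 and ts2 (rows, by role); red is higher and blue is lower. Wildtype replicate 2 is red over most lipoxygenase and allene oxide synthase genes, with 12 of 26 jasmonate genes at least 2-fold higher, and in Bif1;Bif4 replicate 2 the strongest red is in ZIM4 and ZIM18.

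In Bif1;Bif4 replicate 2, the pattern was another. There 3 of the 26 jasmonate genes were at least 2-fold higher than in the other Bif1;Bif4 libraries (1.30% of all tested genes were), and these were ts1, ZIM4 and ZIM18. ZIM4 had 233 normalized counts there, 31.1 and 19.6 in replicates 1 and 3, and 5.51, 3.66 and 1.03 in wildtype. ZIM18 was at 174 against 10.7 and 14.7, with wildtype at most 5.16. The untested ZIM10 was at 67.5 against 5.83 and 5.87, and JAZ9 at 3.97 with 0 in the 5 other libraries. Neither lox10 (log2 difference -0.26) nor the allene oxide synthase genes aos1 and aos2 (0.40 and -0.18) stood out in that library, and ts2 was lower in it (-1.18).

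Between genotypes, 1 of the 26 tested jasmonate genes rose, 0 fell and 25 did not pass (limma), against 2.13% and 2.91% of all tested genes. Of the 26, 9 had an unadjusted limma p under 0.05, a larger share than the 21.0% of all tested genes, and no set test was run. The gene that rose was opr6, from 25.0 ± 4.56 to 160 ± 15.2 normalized counts (log2 fold change 2.64, SE 0.22, limma adjusted p = 7.3e-04). It belongs to the reductase group that, unlike opr7 and opr8, is not known to act in jasmonate synthesis. The list's median log2 fold change was 0.11, beside 0.01 over all tested genes. DESeq2 called 4 genes higher, ts1, opr6, ZIM4 and ZIM18, and 2 lower, lox3 and lox4. In limma, lox3 was at -0.92 with all libraries and at -0.53 without wildtype replicate 2 (adjusted p = 0.19 and 0.11). The limma values of lox4 were -0.68 and -0.70 (adjusted p = 0.072 and 0.12). For ZIM4 and ZIM18 only Bif1;Bif4 libraries reached the filter's minimum, so both entered the test because they were higher there. The edgeR test called opr6 alone.

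Leaving out wildtype replicate 2 changed which pathway genes passed, in a fit that called 6.40% of all genes. The cyclase gene aoc1 then rose, from 734 and 743 in the 2 wildtype libraries to 1069, 1115 and 1094 (log2 fold change 0.56, limma adjusted p = 0.0047). The lipoxygenase gene lox1 then fell, from 3229 and 2987 to 1885, 1714 and 2310 (log2 fold change -0.67, adjusted p = 0.021). opr6 passed in both fits. With all libraries the adjusted p was 0.30 for aoc1 and 0.35 for lox1. Neither aoc1 nor lox1 passed in any other setting. The library left out was singled out for its high values in such genes, so these calls are descriptions. The estimate for aos1 moved from 0.75 to 1.74 and that for lox5 from 0.23 to 0.96, neither past the test.

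**Figure D4:**
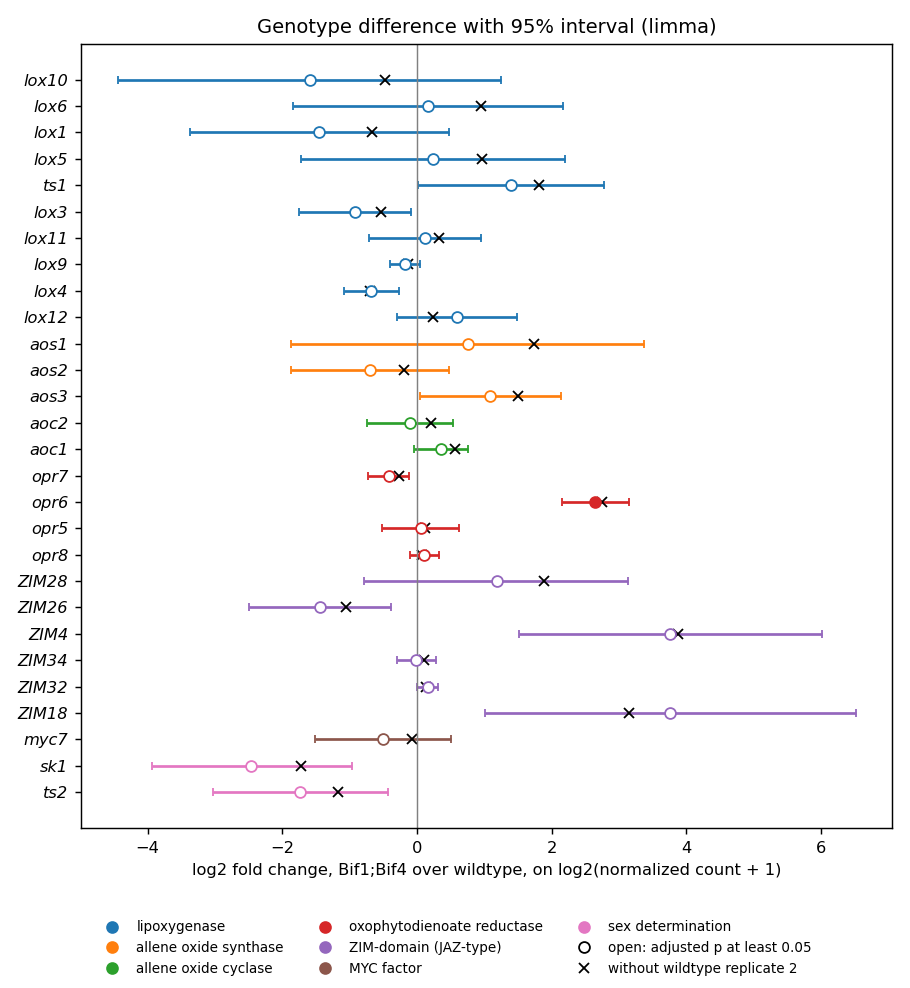
Log2 fold change of Bif1;Bif4 over wildtype (x axis, on log2(normalized count + 1)) with its 95% interval for the same genes; filled points have a limma adjusted p under 0.05 and crosses are estimates without wildtype replicate 2. opr6 is the filled point, and the widest intervals belong to genes such as lox10 (-4.44 to 1.25) and ZIM18, in which 1 library stands apart.

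Other genes of tassel sex determination lie outside the jasmonate pathway, and of these ids1 and d3 fell. Of 16 listed genes 12 were tested, ts1, ts2 and sk1 among them. In that list 2 fell, 0 rose and 10 did not pass (limma), against 2.91% fallen and 2.13% risen of all tested genes. The list's median log2 fold change was -0.35, beside 0.01 over all tested genes, and 5 of the 12 had an unadjusted p under 0.05, beside 21.0%. Without wildtype replicate 2, 1 fell and 0 rose, with a median of -0.31. The AP2 gene ids1, the tasselseed6 locus, fell from 1864, 2975 and 2344 to 1197, 886 and 1131 (log2 fold change -1.15, SE 0.19, adjusted p = 0.022, and 0.014 without wildtype replicate 2). The gibberellin synthesis gene d3, whose loss leaves stamens in the ear, fell from 380, 410 and 539 to 251, 141 and 239 (-1.10, SE 0.24, adjusted p = 0.045, and 0.072 without wildtype replicate 2). The limma adjusted p of ids1 was 0.052 to 0.077 without wildtype replicate 3 or any 1 Bif1;Bif4 library and 0.085 with the replicate number as a block, and that of d3 was 0.059 to 0.13 without any 1 library. The DELLA genes D8 and d9 had log2 fold changes of 0.19 and 0.05 (0.28 and 0.01 without wildtype replicate 2), and an1, another gibberellin synthesis gene, -0.07 (-0.21 without it). The AP2 gene sid1 and the brassinosteroid gene na1 were at -0.34 and -0.36 (-0.38 and -0.28 without it), and none of these 5 passed in either fit.

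The homeobox gene gt1 (grassy tillers1), which takes part in carpel suppression, shared the pattern of wildtype replicate 2. It was at 286 normalized counts there against 27.5 and 10.3, and Bif1;Bif4 had 22.3, 2.98 and 29.4 (log2 fold change -1.68, limma adjusted p = 0.57). That value moved to -0.35 (adjusted p = 0.89) without wildtype replicate 2. With ts1, ts2 and sk1 it made 4 of the 12 tested genes that were 2-fold higher in that library (33.3%, against 4.85% of all tested genes). Without a second gene of the same symbol and doubtful identity the share was 4 of 11 (36.4%). As ts1, ts2 and sk1 are among the genes described first, gt1 is the only other gene in that count. Those genes were chosen with earlier results of these data known, so both shares are descriptions. The floral MADS gene si1 (silky1), too low to be tested, was at 17.4 against 6.61 and 6.19 in wildtype, and Bif1;Bif4 had 0.972, 3.97 and 1.96. ZAG1, bde1 and ts5 were at or under 3 in every library, which is within the limit of a 0.

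**Figure D5:**
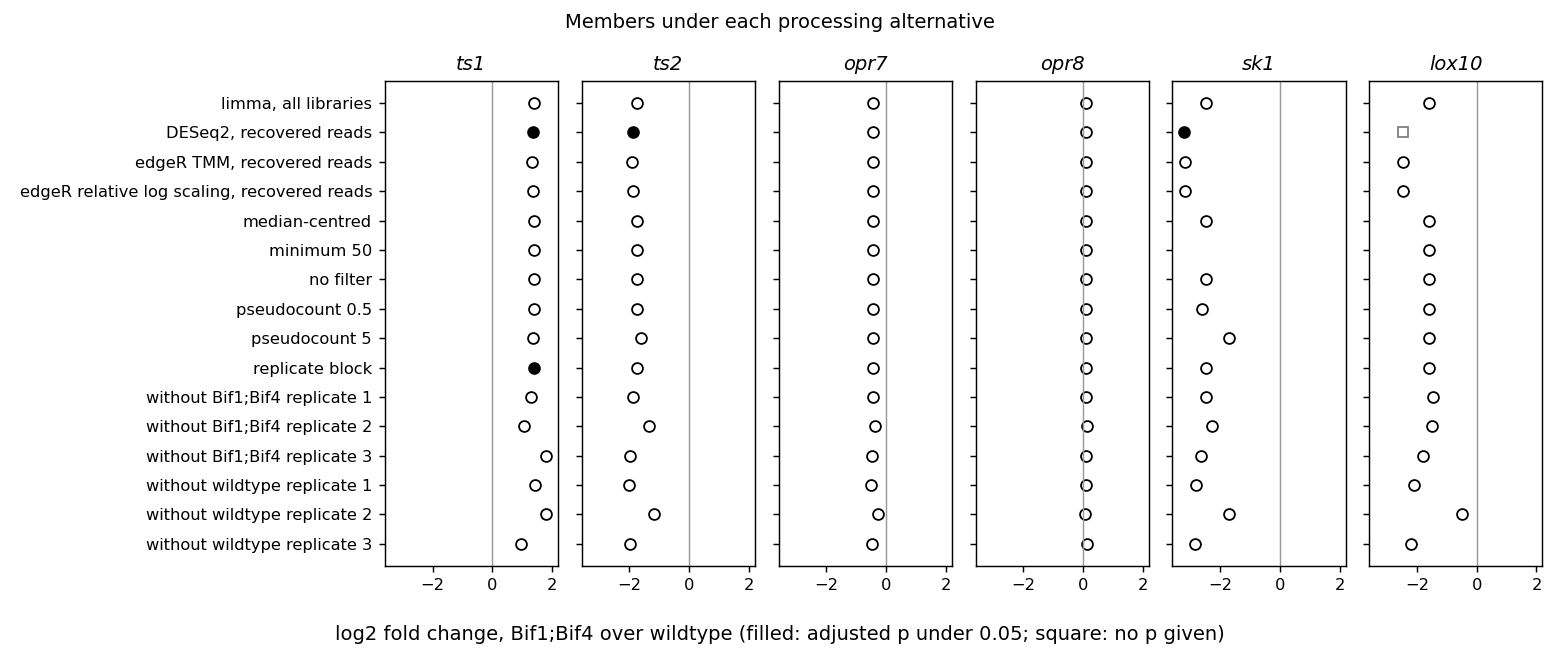
Log2 fold change (x axis) of each of the 6 genes under limma with all libraries and under each processing alternative (rows); filled points passed an adjusted p of 0.05 and the square marks lox10 in DESeq2, where no p-value was given. No gene changed sign under these settings, and the filled points are ts1, ts2 and sk1 with DESeq2 and ts1 with the replicate block.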

How the data were processed

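Tools named in the submitters' processing notes are DESeq2, HTSeq, TopHat2 2.1.1 and Trimmomatic. The build, gene models, strandedness of counting and order of use were not given in the sources used here. Per the labels' protocols, libraries were stranded and made from DNase-treated RNA. The deposited values are a signal: counts of reads per gene over a library's own size factor. The authors' deposited table also holds log2 fold changes with standard errors, Wald scores and p-values. All values were whole multiples of 1 step per library, within 1e-06 reads (100.0%), so reads were recovered by division.

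The main test was limma 3.58.1 (trend, robust) on log2(value + 1) over genes with at least 10 normalized counts in at least 3 libraries, with Benjamini-Hochberg adjustment over all of them. Genes rose or fell where the adjusted p was under 0.05. Log2 fold changes on this scale understate those of low genes. Counts on recovered reads were tested with edgeR 4.0.16 (TMM or relative log scaling) and DESeq2 1.42.0. All 3 were checked on simulated data, in R 4.3.3 and Python 3.11.15. The simulation gave every gene the same spread beyond counting error and had no library that stands apart. It therefore does not cover genes such as lox10, nor the differences between the tests in these data. Other alternatives were pseudocounts of 0.5 and 5, median-centring, no filter or a minimum of 50, the replicate number as a block, and leaving out each library.

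The genes described and the lists were chosen with earlier results of these data known. Named were the 6 genes, list genes past limma, the 2 most abundant genes of each jasmonate role, list genes at least 2-fold apart in wildtype replicate 2, and the 3 nearest profiles with a mean of at least 50. Lists were matched by symbol to RefSeq names of the Zm-B73 NAM assembly, which 18476 identifiers matched uniquely, all 6 genes among them. Nothing says whether pools were grown separately, so p-values measure the spread between pools. Wildtype pools held 5 tassels and Bif1;Bif4 pools 10, so pool size cannot be told apart from genotype. The limma fit took the same variance for both groups. The limit of a 0 is 3 reads and covers counting error only.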

Additional observations from a re-analysis of the deposited data

How the results depend on the processing

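The log2 fold changes of the 6 genes kept their sign in the alternatives run on them, except that taking the sum of opr7 and opr8 (-0.26) in place of opr8 turned its sign. Calls changed with DESeq2, which placed ts1 at 1.36, ts2 at -1.89 and sk1 at -3.21 past the test, and with the replicate block, which placed ts1 at 1.39 past it (adjusted p = 0.006). In the other lists the block ended the calls of ids1 (adjusted p = 0.085) and PR10 (0.072). Across genes, libraries with the same number deviated from their group means with correlations of 0.07, -0.17 and -0.03, so the numbers were not taken to pair the pools. DESeq2 gave no p-value for lox10, and a minimum of 50 left sk1 out. With DESeq2, 1001 genes rose and 1117 fell, against 467 and 637; the cause was not tested. In the jasmonate list 1 gene rose and 0 fell; 4 and 2 did with DESeq2, 2 rose without a filter (opr2 added) and 3 with the replicate block (ts1 and ZIM4 added). Taking the 4 genes described first out of that list, chosen after seeing the data, left 1 and 0. Leaving out 1 library gave 1 to 2 risen and 0 to 1 fallen in that list, and 167 to 776 risen and 282 to 627 fallen over all genes; fewer libraries were then fitted. It gave log2 fold changes of 0.95 to 1.82 for ts1, -2.02 to -1.17 for ts2, -0.51 to -0.27 for opr7, 0.08 to 0.13 for opr8, -2.85 to -1.72 for sk1 and -2.21 to -0.48 for lox10, none past the test. The gap of lox10 in wildtype replicate 2 was 3.23 or 3.47 against either other wildtype library alone, and -0.33 to -0.16 was the range for the sum of opr7 and opr8. Depth limits sk1 most, whose Bif1;Bif4 level is not resolved.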
